A study of Mus musculus with 3 samples.

Results

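Collagen genes were followed across the vascular cells of wild-type mice in a single-cell RNA sequencing study with 3 libraries. The members are all 44 genes of 32285 in the files whose symbol has the form Col, a number, a, a number, so that each codes for 1 collagen chain. By structure, 11 are fibrillar, 8 belong to basement membranes (types IV, XV and XVIII), 6 form beaded filaments (type VI), 3 form open networks (types VIII and X), 9 are fibril-associated, 4 are transmembrane and 3 are of other kinds. The libraries came from mice given sunitinib plus Yoda1, sunitinib, or vehicle, 1 library each, and all carried a label of 3 weeks, without saying whether this is an age or a time of treatment. Sunitinib inhibits receptor tyrosine kinases, among them the receptors of VEGF and PDGF, and Yoda1 opens the stretch-gated cation channel PIEZO1. The titles call these samples Yoda1, TKI and control, and the series text names sunitinib and its combination with Yoda1. The tissue is given as vascular, and cells came from an arterial digest. Neither the strain, age and number of animals nor any dose is given in the sources used here.

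Collagens are trimers of chains that fold in the endoplasmic reticulum, and each cell type makes its own set. Type I and III fibrils carry the tensile load of the arterial wall, while type IV chains form the sheet-like networks of basement membranes around smooth muscle cells and under endothelium. Type IV trimers come in 3 known combinations: the chains of Col4a1 and Col4a2 together, found in nearly all basement membranes, those of Col4a3, Col4a4 and Col4a5, best known from the kidney glomerulus, and those of Col4a5 and Col4a6, known from smooth muscle.

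The type IV genes lie in the genome as 3 head-to-head pairs, and since the results below turn on these pairs, the DNA between their starts is shown where a file holds it. Coordinates are those of GENCODE on GRCm38 (mm10). Col4a1 (chromosome 8, 11198423 to 11312826, minus strand) and Col4a2 (chromosome 8, 11312805 to 11449287, plus strand) overlap at their starts by 22 bases. The starts of Col4a4 (chromosome 1, 82448423 to 82586849, minus strand) and Col4a3 (chromosome 1, 82586921 to 82722059, plus strand) are separated by 71 bases. Those of Col4a6 (chromosome X, 141165403 to 141474076, minus strand) and Col4a5 (chromosome X, 141475385 to 141689234, plus strand) are separated by 1308 bases. The sequences below are from RefSeq promoter windows on GRCm38.p6, which cover 250 bases before and 50 bases after a start and were found for 35 of the 44 genes. The whole stretch between Col4a4 and Col4a3 is read towards Col4a4, and for the X-linked pair the bases just before each GENCODE start are given, each read towards its own gene. Capitals mark CCAAT or ATTGG, and GGGCGG or CCGCCC, a motif and its reverse complement in each case.
Col4a4 and Col4a3 (chr1:82586850-82586920, minus strand): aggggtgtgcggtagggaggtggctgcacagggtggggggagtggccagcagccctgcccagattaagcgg
Col4a6 (chrX:141474077-141474326, minus strand): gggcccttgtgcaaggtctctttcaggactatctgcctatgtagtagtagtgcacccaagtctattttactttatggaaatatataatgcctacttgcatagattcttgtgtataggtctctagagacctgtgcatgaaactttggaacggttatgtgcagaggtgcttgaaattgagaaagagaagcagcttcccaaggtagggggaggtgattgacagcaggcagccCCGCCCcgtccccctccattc
Col4a5 (chrX:141475169-141475384, plus strand): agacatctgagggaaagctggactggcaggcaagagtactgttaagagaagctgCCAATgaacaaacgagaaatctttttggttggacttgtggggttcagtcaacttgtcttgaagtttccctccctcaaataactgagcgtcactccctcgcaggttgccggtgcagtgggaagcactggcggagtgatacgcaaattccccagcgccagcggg
Of 32851 promoter windows of 300 bases, 37.4% hold CCAAT on either strand and 35.7% hold GGGCGG on either strand. Among the 38 windows of collagen genes the shares were 34.2% and 60.5%. The 71 bases shared by Col4a4 and Col4a3 hold neither motif, and 69.0% of them are G or C. The 250 bases before Col4a6 hold a CCGCCC, and the 216 bases before Col4a5 hold a CCAAT. These matches are letters in a window and no evidence of binding.

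A cell entered if it held 500 or more UMIs (unique molecular identifiers, which mark single captured RNA molecules), 300 or more genes and no more than 15% of UMIs from mitochondrial genes, leaving 3130 cells for sunitinib plus Yoda1, 4148 for sunitinib and 3947 for vehicle, from 28364203, 66769480 and 73901343 UMIs. Smooth muscle cells were those with at least 2% of UMIs from Acta2, Tagln, Myh11 and Cnn1, which left 65, 3818 and 3614 cells in the same order. Endothelial cells had both Pecam1 and Cdh5 (342, 160 and 140 cells). Fibroblasts had both Pdgfra and Dpt (150, 3 and 5 cells) and were therefore described in the sunitinib plus Yoda1 library alone. That library differed from the others in make-up, since 1782 of its cells carried lymphocyte markers, against 1 cell in each of the other libraries. It was also counted with Cell Ranger 7.1.0, and the others with 6.0.0. Kept cell barcodes shared between libraries numbered 5, 1 and 2 for the 3 pairs. Levels are in CPM, a gene's share of the UMIs summed over a class in a library, on the usual scale of that name. The assay counts transcript 3′ ends, and levels were not scaled by gene length. Ratios of sunitinib plus Yoda1 to sunitinib still rose with intron length, as described below. With 1 library per group no difference has a replicate check and no test was made; brackets give 95% intervals for counting error alone.

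The class labels held against markers that the gates did not use. All 7 endothelial check genes were found in endothelium of each library (summed 4217 CPM for sunitinib plus Yoda1, 2307 for sunitinib and 2252 for vehicle), against 21.5 to 33.2 CPM in smooth muscle. Kdr among them had only 7 UMIs in endothelium with sunitinib (3.85 CPM), against 752 CPM for sunitinib plus Yoda1. The 6 smooth muscle check genes summed to 3912, 2940 and 2594 CPM in smooth muscle and to 112, 163 and 167 CPM in endothelium. The 7 fibroblast check genes summed to 15410 CPM in fibroblasts. They also summed to 75.3, 639 and 639 CPM in endothelium and to 186, 301 and 402 CPM in smooth muscle. Among them Dcn was at 142 CPM in endothelium for sunitinib and 181 CPM for vehicle, and the part of fibroblast RNA in the fibrillar levels of endothelium was not tested. The endothelium itself was of unlike kinds. A UMI of the capillary genes Cd36, Gpihbp1, Rgcc or Car4 was seen in 87.1% of endothelial cells for sunitinib plus Yoda1, 3.13% for sunitinib and 4.29% for vehicle. Genes of large-artery endothelium summed to 530, 2398 and 2462 CPM, and lymphatic genes to 575, 8.80 and 1.84 CPM. These differences stand beside every endothelial comparison with the sunitinib plus Yoda1 library. A capillary-gene UMI was not confined to endothelium. It was seen in 9.23%, 20.4% and 35.2% of smooth muscle cells, in the same order, and in 30.8% of lymphocytes for sunitinib plus Yoda1.

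Collagens took 1.89% of UMIs in fibroblasts, 0.490%, 0.517% and 0.525% in smooth muscle (sunitinib plus Yoda1, sunitinib, vehicle), and 0.232%, 0.142% and 0.134% in endothelium. In lymphocytes, which should make none, the share was 0.00537%. In 20 of the 44 genes the level reached 100 CPM in a class of at least 50 cells, 27 had at least 50 UMIs in such a class, and 17 did not. Those 17, among them the cartilage collagens Col2a1, Col9a1, Col9a2, Col9a3, Col10a1, Col11a1 and Col11a2, peaked at 8.27 CPM or less, and Col2a1 had no UMI in any of these classes.

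**Figure D1:**
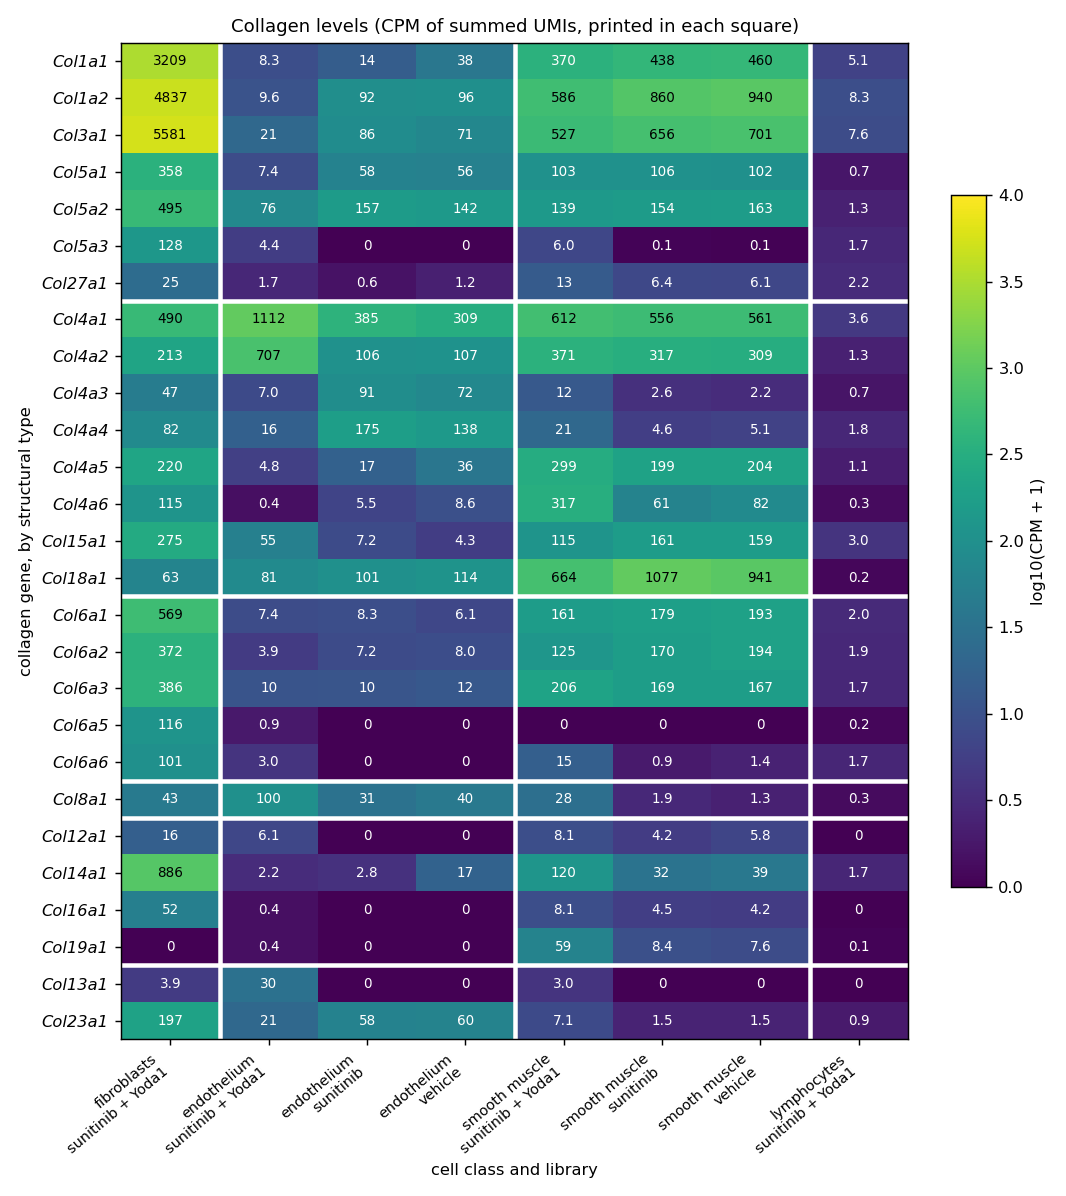
Levels in CPM (printed, with colour on a log10(CPM + 1) scale) of the 27 collagen genes with at least 50 UMIs in a class, in rows by structural type, for fibroblasts, endothelium, smooth muscle and lymphocytes of each library with at least 50 such cells. Fibroblasts stand out in the fibrillar rows, with Col3a1 at 5581 CPM, and endothelium in the sunitinib and vehicle libraries in the Col4a3 and Col4a4 rows, where smooth muscle of the same libraries is at 5.14 CPM or less.

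Per cell, the median collagen share was 1.29% of UMIs in fibroblasts, with 5% of cells above 3.58%. In smooth muscle the medians were 0.452% for sunitinib plus Yoda1, 0.477% for sunitinib and 0.495% for vehicle. In endothelium they were 0.205%, 0.128% and 0.106%. The smooth muscle medians lay within each other's middle ranges, and fibroblasts spread more widely than any other class.

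**Figure D2:**
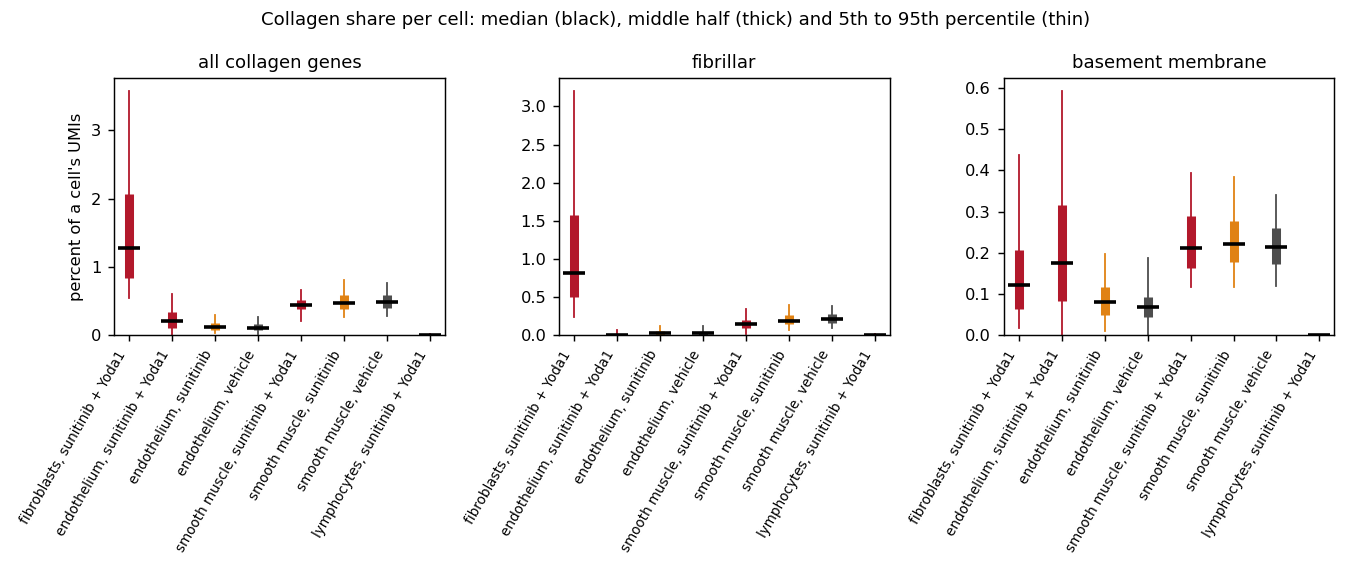
Percent of a cell's UMIs from all collagen genes, fibrillar genes and basement membrane genes, by class and library (black line: median, thick bar: 25th to 75th percentile, thin bar: 5th to 95th percentile of cells). Fibroblasts lead in fibrillar collagens (median 0.818%), and the median basement membrane share of smooth muscle lies between 0.213% and 0.221% in all 3 libraries.

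In smooth muscle the basement membrane and fibrillar groups had like shares. Fibrillar genes made up 35.6% of collagen UMIs for sunitinib plus Yoda1, 42.9% for sunitinib and 45.2% for vehicle, and basement membrane genes 49.2%, 46.0% and 43.1%. Col1a2, the second chain of type I collagen, was at 586 CPM for sunitinib plus Yoda1, 860 for sunitinib and 940 for vehicle. Col1a1, its partner, was at 370, 438 and 460 CPM, and Col3a1, the chain of type III collagen, at 527, 656 and 701 CPM. Col18a1, whose chain is the precursor of endostatin, was at 664, 1077 and 941 CPM, against 62.6 CPM in fibroblasts and 81.0, 101 and 114 CPM in endothelium. Smooth muscle thus had the highest Col18a1 level of the compared classes in every library. The type VI chains Col6a1, Col6a2 and Col6a3 lay between 125 and 206 CPM in smooth muscle. Col4a5 was at 299, 199 and 204 CPM and Col4a6 at 317, 60.5 and 81.7 CPM.

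In smooth muscle of the sunitinib and vehicle libraries, the ratio of Col1a1 to Col1a2 and that of Col4a1 to Col4a2 were close, while those of the other type IV pairs differed more. The UMI ratio of Col1a1 to Col1a2 was 0.631 [0.552, 0.720] for sunitinib plus Yoda1, 0.510 [0.502, 0.517] for sunitinib and 0.490 [0.483, 0.496] for vehicle, and 0.663 [0.643, 0.684] in fibroblasts. Col4a1 to Col4a2 stood at 1.65, 1.75 and 1.81 in smooth muscle. In endothelium it was 1.57 [1.48, 1.67] for sunitinib plus Yoda1, against 3.64 [3.10, 4.29] for sunitinib and 2.89 [2.43, 3.45] for vehicle. The interval of the sunitinib plus Yoda1 endothelium overlapped that of its smooth muscle [1.45, 1.89], and endothelium of the other libraries had fewer Col4a2 UMIs per Col4a1 UMI. Col4a5 to Col4a6 was 0.943 [0.802, 1.11] for sunitinib plus Yoda1, 3.29 [3.17, 3.41] for sunitinib and 2.49 [2.42, 2.57] for vehicle in smooth muscle. Col4a3 to Col4a4 was 0.571 [0.256, 1.22], 0.576 [0.473, 0.7001] and 0.424 [0.348, 0.515] there. Such ratios compare counts of different genes and hold no correction for capture or intron length. Col4a5 has 207132 intron bases and Col4a6 has 300701. The part of intron counting in their ratio for sunitinib plus Yoda1 was not tested.

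Endothelium and smooth muscle differed in their type IV chains, in a pattern that the sunitinib plus Yoda1 library shared for Col4a5 and Col4a6 and not for Col4a3 and Col4a4. In that library Col4a3 was at 6.97 CPM in endothelium and 12.1 CPM in smooth muscle (16 and 12 UMIs), and Col4a4 at 16.1 and 21.2 CPM (37 and 21 UMIs). Between these 2 classes in the sunitinib and vehicle libraries, Col4a3 and Col4a4 were higher in endothelium and Col4a5 and Col4a6 in smooth muscle. Col4a1 was present in both. These chains were not confined to the 2 classes. Fibroblasts of the sunitinib plus Yoda1 library had Col4a3 at 47.1 CPM, Col4a4 at 82.0, Col4a5 at 220 and Col4a6 at 115 CPM. Col4a3 was at 91.3 CPM in endothelium and 2.64 CPM in smooth muscle with sunitinib, a log2 ratio of 5.11 [4.79, 5.43]. With vehicle it was at 72.4 and 2.18 CPM, a log2 ratio of 5.05 [4.69, 5.41]. Col4a4 was at 175 CPM in endothelium and 4.58 CPM in smooth muscle with sunitinib, and at 138 and 5.14 CPM with vehicle, or 5.25 and 4.75 on the log2 scale. At these levels a Col4a3 UMI was seen in 51.9% of endothelial cells with sunitinib and 47.9% with vehicle, and in 3.85% and 3.62% of smooth muscle cells. With cells thinned to 2000 UMIs the shares were 17.8% and 19.4% of endothelial cells and 0.357% and 0.362% of smooth muscle cells.

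Col4a5 went the other way, with 16.5 CPM in endothelium and 199 CPM in smooth muscle for sunitinib, and 36.2 and 204 CPM for vehicle. Col4a6 was at 5.50 and 60.5 CPM for sunitinib, and at 8.59 and 81.7 CPM for vehicle, in endothelium and smooth muscle. Col4a1 differed less, at 385 CPM in endothelium and 556 CPM in smooth muscle for sunitinib and at 309 and 561 CPM for vehicle. Col4a2 was at 106 and 317 CPM, and at 107 and 309 CPM, a log2 ratio of -1.59 and -1.54. In these 2 libraries the pair on chromosome 1 was thus higher in endothelium and the pair on chromosome X in smooth muscle.

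**Figure D3:**
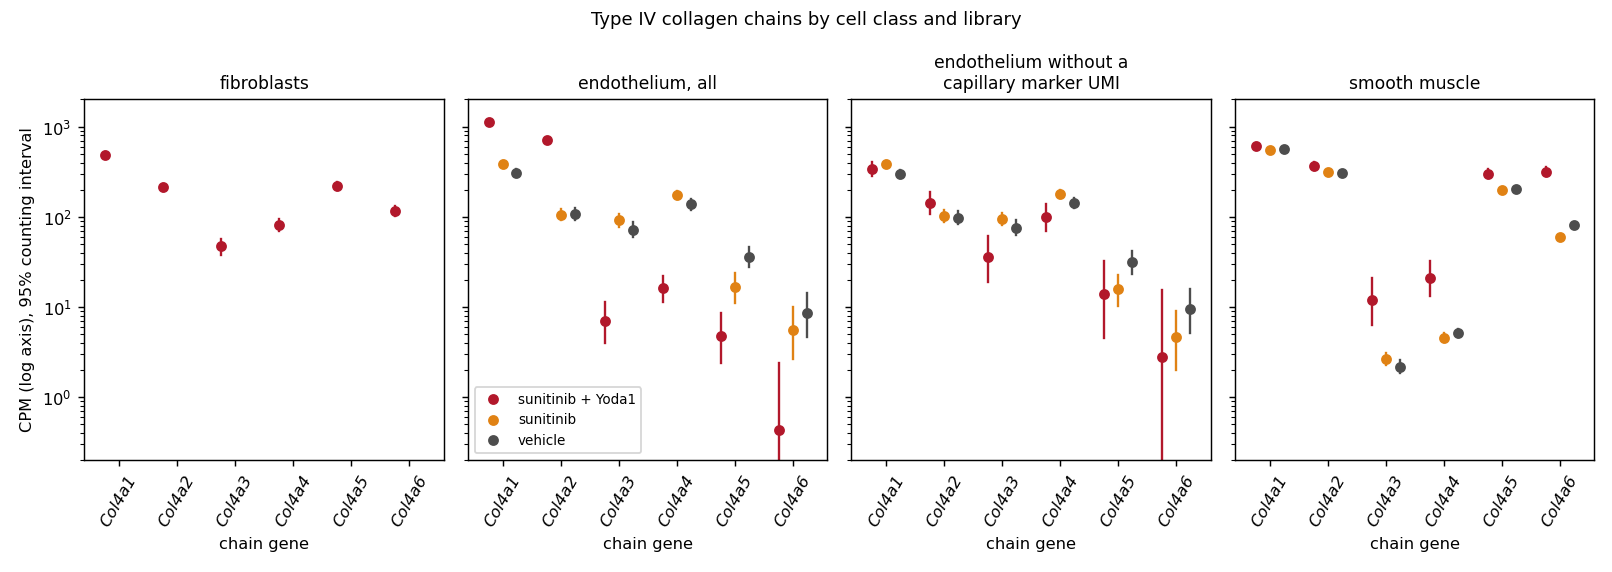
CPM (log axis, with 95% counting intervals) of the 6 type IV chain genes in fibroblasts, in all endothelial cells, in endothelial cells without a UMI of the 4 capillary genes, and in smooth muscle, with sunitinib plus Yoda1, sunitinib and vehicle from left to right. Endothelium without capillary UMIs holds Col4a3 and Col4a4 at 36.0 to 179 CPM in all 3 libraries, while all endothelium of the sunitinib plus Yoda1 library is at 6.97 and 16.1 CPM.

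By the 2-fold rule used between classes (with at least 20 UMIs over both sums), 3 of 23 measured collagen genes were higher in endothelium for sunitinib plus Yoda1, 4 of 23 for sunitinib and 4 of 24 for vehicle, against 24.4%, 19.6% and 20% of all genes. Lower in endothelium were 14, 16 and 16 of these, against 12.8%, 14.8% and 15.5% of all genes. The median log2 ratio over the measured collagen genes was -3.03, -2.93 and -1.86, and over all genes it was 0.25, 0.14 and 0.09. For the sunitinib and vehicle libraries the 4 higher genes were Col4a3, Col4a4, Col8a1 and Col23a1. Col23a1, a transmembrane collagen, was at 58.3 CPM in endothelium and 1.46 in smooth muscle for sunitinib and at 60.1 and 1.52 CPM for vehicle. Col8a1, a network collagen laid down by endothelium, was at 30.8 and 1.86 CPM for sunitinib, and at 40.5 and 1.34 CPM for vehicle. For sunitinib plus Yoda1 the 3 higher genes were Col13a1 (29.6 and 3.02 CPM), Col8a1 (99.7 and 28.2 CPM) and Col23a1 (21.3 and 7.05 CPM). The lowest ratios there were those of Col4a6 (0.435 and 317 CPM), Col19a1 (0.435 and 59.4 CPM) and Col4a5 (4.79 and 299 CPM).

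Smooth muscle RNA carried into endothelial droplets sets a limit to the low values. The contractile gate genes were at 2623 CPM in endothelium and 46992 CPM in smooth muscle for sunitinib. At most 5.58% of a smooth muscle level could thus be carried over, if carried RNA had the mean make-up of gated smooth muscle. The same bound was 5.11% for vehicle and 0.497% for sunitinib plus Yoda1. Cells in none of the classes, with sunitinib, held Col1a1 at 630 CPM, above smooth muscle, and the contractile genes at 13003 CPM. RNA of such a make-up is not limited by the bound. At that bound, Col1a1 in endothelium would be covered to 171% for sunitinib and 61.9% for vehicle, Col15a1 to 126% and 189%, Col6a1 to 121% and 161%, and Col1a2 to 51.9% and 49.9%. For Col4a1 it covered 8.06% and 9.30%, and for Col4a3 0.161% and 0.154%. The endothelial Col5a2 level of 157 CPM for sunitinib and 142 CPM for vehicle, near the 154 and 163 CPM of smooth muscle, was covered to 5.50% and 5.89%. Col5a1, the partner of Col5a2 in type V fibrils, was at 58.3 and 56.4 CPM in endothelium and 106 and 102 CPM in smooth muscle.

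Between sunitinib and vehicle, the collagen genes of smooth muscle were nearly level. Of 28 measured genes, 25 lay within 1.5-fold, 1 was higher (all genes: 7.41%) and 2 were lower (all genes: 4.76%). The median log2 ratio was -0.06 for the collagens and 0.09 for all 13961 genes. The gene beyond 1.5-fold upwards was Col20a1, with 18 UMIs for sunitinib and 10 for vehicle, and those downwards were Col6a6 (0.939 and 1.41 CPM) and Col11a2 (15 and 25 UMIs). All 3 are rare in these cells. Among genes of more than 10 CPM, Col4a6 was at 60.5 CPM with sunitinib and 81.7 CPM with vehicle, a log2 ratio of -0.43 [-0.49, -0.37]. Col14a1, whose chain binds the surface of type I fibrils, was at 32.4 and 39.4 CPM (-0.28 [-0.37, -0.20]). Col18a1 was at 1077 and 941 CPM (0.19 [0.18, 0.21]). The rarer Col8a1 (1.86 and 1.34 CPM, 0.47 [0.07, 0.88]), Col4a3 (2.64 and 2.18 CPM, 0.28) and Col12a1 (4.20 and 5.85 CPM, -0.48) completed the ends of the ranking.

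As groups in smooth muscle, fibrillar collagens summed to 2221 CPM with sunitinib and 2374 CPM with vehicle, a log2 ratio of -0.10 [-0.11, -0.09]. Basement membrane collagens summed to 2378 and 2264 CPM, a log2 ratio of 0.07 [0.06, 0.08]. Type VI chains summed to 519 and 556 CPM (-0.10), and fibril-associated collagens to 50.2 and 57.7 CPM (-0.20 [-0.27, -0.13]). The counting intervals of these sums exclude 0 at this depth, but the differences are small and rest on 1 library each.

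In endothelium 19 genes were measured, of which 14 lay within 1.5-fold, 1 was higher (all genes: 12%) and 4 were lower (all genes: 6.39%). The median log2 ratio was -0.04, against 0.12 over all genes. Of the chains endothelium makes, Col4a1 was at 385 CPM with sunitinib and 309 CPM with vehicle (0.32 [0.15, 0.49]). Col4a4 was at 175 and 138 CPM (0.34 [0.09, 0.60]) and Col4a3 at 91.3 and 72.4 CPM (0.34 [-0.01, 0.69]). Col4a2 was at 106 and 107 CPM, Col23a1 at 58.3 and 60.1 CPM and Col8a1 at 30.8 and 40.5 CPM (-0.39 [-0.93, 0.14]). These 6 genes all lay within 1.5-fold.

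The 4 lower genes were Col14a1 (5 and 28 UMIs, -2.64 [-4.37, -1.25]), Col1a1 (26 and 62 UMIs, -1.41 [-2.13, -0.73]), Col4a5 (30 and 59 UMIs, -1.13 [-1.82, -0.48]) and Col4a6 (10 and 14 UMIs). The carry-over bound covered 65.7% and 11.7% of the Col14a1 level, 171% and 61.9% for Col1a1, 67.3% and 28.8% for Col4a5 and 61.4% and 48.7% for Col4a6. The higher gene was Col15a1 (13 and 7 UMIs), which lay under the carry-over bound in both libraries. Few cells carried them: 15 of the 26 Col1a1 UMIs with sunitinib sat in 1 cell, and 62 UMIs with vehicle sat in 17 of 140 cells. In cells without a capillary UMI, Col1a1 was at 5.22 CPM with sunitinib (155 cells) and 23.6 CPM with vehicle (134 cells). The 5 and 6 cells with such a UMI were at 181 and 187 CPM. They had medians of 18144 and 18721 UMIs, against 7674 and 8516.5 in the cells without. Such a UMI was also seen in 20.4% and 35.2% of smooth muscle cells of these libraries. Whether the 5 and 6 cells held smooth muscle RNA was not tested. Col14a1 was found in 4 endothelial cells with sunitinib and 15 with vehicle. After thinning to 2000 UMIs per cell, 11 genes were measured in place of 19, and none of these 4 was among them.

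**Figure D4:**
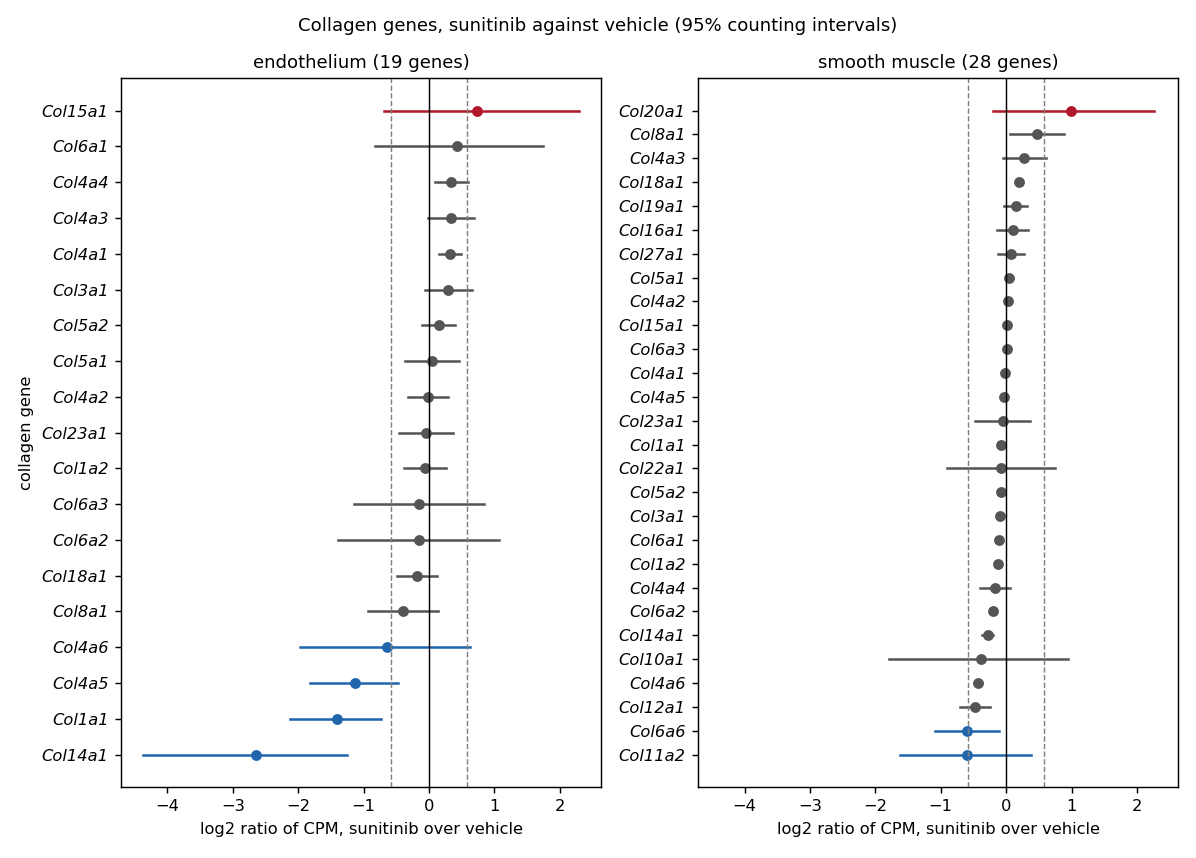
Log2 ratio of CPM, sunitinib over vehicle, for each collagen gene with at least 20 UMIs over both libraries, in endothelium (19 genes) and smooth muscle (28 genes). Lines are 95% counting intervals, dashed lines mark 1.5-fold, and colours mark genes beyond it; the abundant type I, III, IV and VI chains lie within 1.5-fold in smooth muscle.

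The libraries of sunitinib plus Yoda1 and of sunitinib differ by the PIEZO1 agonist, but also in cell make-up and in the version of Cell Ranger. From version 7 that program counts intronic reads by default, and the log2 ratio over all genes was higher the longer the introns of a gene. With all genes in 5 equal bins from the shortest introns to the longest, its median was -0.09, -0.00, 0.13, 0.36 and 0.95 in smooth muscle, and -0.36, -0.12, 0.19, 0.51 and 1.31 in endothelium. Collagen genes are long, with 19 of 25 measured in smooth muscle and 12 of 18 in endothelium falling in the longest bin. The part of intron counting in each ratio was not tested.

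In smooth muscle 13 of 25 measured genes were higher (all genes: 35.0%) and 1 was lower (all genes: 10.7%). The median log2 ratio was 0.59, against 0.23 over all genes. In the longest bin the collagen median was 1.03 and that of all genes 0.95. The highest ratios among genes with at least 50 UMIs were those of Col6a6 (15.1 and 0.939 CPM, 4.01 [3.08, 4.85]), Col8a1 (28.2 and 1.86 CPM, 3.92 [3.27, 4.53]) and Col19a1 (59.4 and 8.45 CPM, 2.81 [2.40, 3.20]). Col6a6 codes for a type VI chain that can stand in for that of Col6a3, and Col19a1 for a fibril-associated chain of basement membrane zones. Col4a6 was at 317 and 60.5 CPM (2.39 [2.22, 2.56]) and Col14a1 at 120 and 32.4 CPM (1.89 [1.61, 2.16]). Col18a1 was the lower gene, at 664 and 1077 CPM (-0.70 [-0.81, -0.59]), followed by Col1a2 (586 and 860 CPM, -0.55 [-0.67, -0.43]) and Col15a1 (115 and 161 CPM, -0.49 [-0.77, -0.22]). Col4a1 (612 and 556 CPM) and Col4a2 (371 and 317 CPM) were nearly level.

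The 65 smooth muscle cells of the sunitinib plus Yoda1 library were a mixture. In the 29 cells with a UMI of posterior Hox genes, which mark caudal positions along the body axis, Col4a1 was at 854 CPM, Col19a1 at 106 and Col8a1 at 57.4, against 410, 20.4 and 3.71 CPM in the 36 cells without. Col4a6 was the reverse, at 205 and 411 CPM. Under a gate of 5% contractile UMIs 5 cells were left, in which Col4a1 was at 1427 CPM and Col4a6 had no UMI, so Col4a6 and Col4a5 then stood below sunitinib (log2 ratio at most -0.37, a bound from the 3-UMI floor, and -1.20). In the vehicle and sunitinib libraries the Hox split moved Col4a1 little, at 585 and 530 CPM for vehicle and 574 and 524 CPM for sunitinib, cells with a Hox UMI first. Pericyte genes in smooth muscle summed to 893, 1906 and 2002 CPM for sunitinib plus Yoda1, sunitinib and vehicle, and red-cell genes to 7064, 1.37 and 7.61 CPM; their part in these ratios was not tested.

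In endothelium 5 of 18 measured genes were higher (all genes: 37.1%) and 10 were lower (all genes: 20.3%). In the bin of longest introns the collagen median was -0.68 and that of all genes 1.31. Red-cell genes summed to 36881 CPM in this endothelium for sunitinib plus Yoda1 and 3.30 CPM for sunitinib, and lymphocyte genes to 72.3 and 0 CPM; their part in these ratios was not tested. Col4a1 was at 1112 CPM for sunitinib plus Yoda1 and 385 CPM for sunitinib, a log2 ratio of 1.53 [1.41, 1.65], and Col4a2 at 707 and 106 CPM, a ratio of 2.74 [2.53, 2.97]. Col15a1, a basement membrane proteoglycan, was at 54.9 and 7.15 CPM (2.94 [2.11, 3.89]) and Col8a1 at 99.7 and 30.8 CPM (1.69). Col13a1, a transmembrane collagen, had 68 UMIs against 0, which is at least 17.9-fold higher with 3 UMIs taken as the floor. In the other direction, Col4a3 was at 6.97 and 91.3 CPM (-3.71 [-4.55, -2.97]) and Col4a4 at 16.1 and 175 CPM (-3.44 [-3.97, -2.95]). Both lie in the bin of longest introns. Col1a2 was at 9.58 and 92.4 CPM (-3.27), near the 8.30 CPM of lymphocytes in the same library.

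Endothelial cells with and without capillary UMIs differed inside the sunitinib plus Yoda1 library. In its 298 cells with such a UMI, Col4a1 was at 1256 CPM and Col4a2 at 812 CPM, against 343 and 144 CPM in the 44 cells without. Col13a1 (34.6 and 2.77 CPM) and Col15a1 (62.0 and 16.6 CPM) had the same direction. Col4a3 was at 1.55 and 36.0 CPM, Col4a4 at 0.517 and 99.7 CPM, Col5a2 at 37.7 and 282 CPM, Col8a1 at 64.6 and 288 CPM and Col18a1 at 50.6 and 244 CPM, all lower with a capillary UMI. The 23 cells with a UMI of Prox1, the regulator of lymphatic identity, had Col18a1 at 248 CPM and Col23a1 at 135 CPM, and no UMI of Col4a3 or Col4a4.

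Among cells without a capillary UMI, the 3 libraries had closer levels of Col4a1, Col4a3 and Col4a4 than over all endothelium. Col4a1 was at 343 CPM for sunitinib plus Yoda1 (44 cells), 385 for sunitinib (155 cells) and 297 for vehicle (134 cells). Col4a4 was at 99.7, 179 and 143 CPM, and Col4a3 at 36.0, 94.55 and 76.0 CPM. The log2 ratio of Col4a1 between sunitinib plus Yoda1 and sunitinib was then -0.17, against 1.53 over all endothelium, and that of Col5a2 was 0.83, against -1.04. Col8a1 and Col18a1 did not come closer. Over all endothelium Col8a1 was at 99.7 CPM for sunitinib plus Yoda1 and 30.8 for sunitinib, and Col18a1 at 81.0 and 101 CPM. In the 44 cells both were higher, as given above, and further from these sunitinib levels. The part of cell make-up in these differences was not tested. This split by capillary UMIs was added after the levels had been seen.

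**Figure D5:**
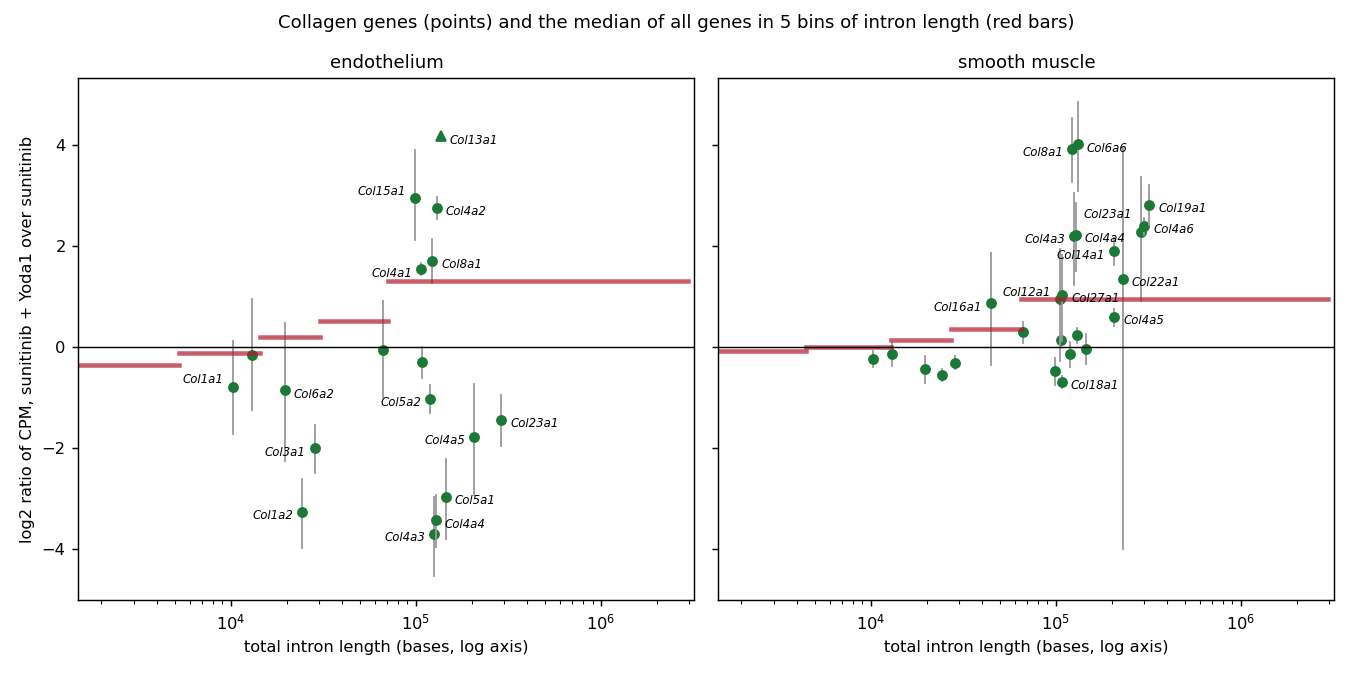
Log2 ratio of CPM, sunitinib plus Yoda1 over sunitinib, against total intron length (log axis) for collagen genes in endothelium and smooth muscle, with 95% counting intervals, names for genes beyond 1.5-fold and a triangle for a lower bound. Red bars are medians over all genes in 5 bins of intron length, which reach 1.31 in endothelium and 0.95 in smooth muscle; Col4a3, Col4a4 and Col5a1 lie far below the bar of the longest bin in endothelium.

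Fibroblasts of the sunitinib plus Yoda1 library had the highest fibrillar collagen levels of the 4 classes. Col3a1 was at 5581 CPM in fibroblasts and 527 CPM in smooth muscle, Col1a2 at 4837 and 586 CPM and Col1a1 at 3209 and 370 CPM, log2 ratios of 3.41, 3.04 and 3.12. Of 26 measured genes, 16 were higher in fibroblasts (all genes: 20%) and 3 lower (all genes: 10.3%), with a median of 1.81 against 0.15 over all genes. Type VI used further chains: Col6a5 had 116 CPM in fibroblasts and no UMI in smooth muscle, which is at least 38.5-fold higher, and Col6a6 was at 101 and 15.1 CPM. Col23a1 was at 197 and 7.05 CPM and Col5a3, a further type V chain, at 128 and 6.04 CPM. Lower in fibroblasts were Col18a1 (62.6 and 664 CPM, -3.41 [-3.69, -3.13]), Col4a6 (115 and 317 CPM, -1.46 [-1.71, -1.21]) and Col19a1 (no UMI against 59.4 CPM).

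Against endothelium of the same library, 22 of 28 measured genes were higher in fibroblasts (all genes: 16.3%) and 5 lower (all genes: 18%), with a median of 4.35. Col1a2 led with 4837 CPM in fibroblasts and 9.58 CPM in endothelium (8.98 [8.38, 9.65]), then Col14a1 with 886 and 2.18 CPM and Col1a1 with 3209 and 8.27 CPM. The 5 lower genes were Col13a1 (3.88 and 29.6 CPM), Col4a2 (213 and 707 CPM), Col28a1 (2.91 and 8.27 CPM), Col8a1 (42.7 and 99.7 CPM) and Col4a1 (490 and 1112 CPM).

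Fibroblasts were not uniform either. In 104 cells with a UMI of Pi16, a marker of adventitial fibroblasts, Col14a1 was at 987 CPM and Col4a3 at 61.2 CPM, against 614 and 8.95 CPM in the 46 cells without. Col6a5 was at 56.6 and 278 CPM, Col23a1 at 145 and 338 CPM and Col4a1 at 420 and 679 CPM, all lower with Pi16. Fibroblasts with a Col4a4 UMI had a Col4a3 UMI in 29.6% of cells (8 of 27), against 5.74% (7 of 122) without, after thinning to 2000 UMIs.

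The same pairing was looked at in the other classes after thinning. In vehicle endothelium a Col4a3 UMI was present in 38.2% of cells with a Col4a4 UMI [22.2, 56.4] and 13% of cells without [7.11, 21.2], and with sunitinib in 24.5% [13.3, 38.9] and 14.6% [8.39, 22.9]. The intervals with sunitinib overlap. In endothelium for sunitinib plus Yoda1, Col4a3 was present in 0 of 8 cells with Col4a4 and 2 of 297 without. In smooth muscle it was present in 0 of 3 and 1 of 59 cells for sunitinib plus Yoda1. There the counts were 1 of 28 and 12 of 3611 with sunitinib, and 0 of 42 and 13 of 3551 with vehicle. In endothelium of the sunitinib plus Yoda1 library, Col4a1 was present in 88.1% of cells with Col4a2 (171 of 194) and 47.7% without (53 of 111), while in lymphocytes of that library, of like depth (median 5667 UMIs against 5023.5), 0.342% of thinned cells had a Col4a1 UMI. In smooth muscle the difference in Col4a1 with and without Col4a2 was small, at 67.7% and 62.8% with sunitinib and 67.3% and 61.4% with vehicle.

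Within smooth muscle, the type I collagen genes, and to a smaller extent Col3a1, had higher levels in the cells of lowest contractile share. The gate itself used this measure. In the 25% of cells with the highest contractile share, Col1a1 was at 350 CPM with sunitinib and 387 CPM with vehicle, against 536 and 553 CPM in the lowest 25%. Col1a2 was at 708 and 772 CPM in the highest 25% and 1020.4 and 1119.8 CPM in the lowest. Col3a1 was at 615 and 677 CPM in the highest 25% and 706 and 738 CPM in the lowest. Col14a1 was at 24.5 and 25.2 CPM, against 48.3 and 57.0 CPM. Col18a1 was at 1046 and 892 CPM, against 1111 and 974 CPM. With vehicle its difference was about as small as that of Col3a1. Cells just outside the 2% gate (1.5 to 2%) had Col1a1 at 697 CPM with sunitinib and 624 CPM with vehicle, and those just inside (2 to 2.5%) had 460 and 630 CPM. Col3a1 had the other order at the gate, with 574 and 600 CPM just outside and 698 and 702 CPM just inside.

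The machinery that folds and processes collagens was followed through 54 genes that are not collagens. In smooth muscle 49 were measured for sunitinib against vehicle, of which 2 were higher (all genes: 7.41%) and 1 lower (all genes: 4.76%). The lower gene was P4ha1, a catalytic subunit of prolyl 4-hydroxylase, which makes the hydroxyproline that holds the triple helix together, at 60.5 CPM with sunitinib and 127 CPM with vehicle (-1.07). The higher genes were Adamts14, a procollagen peptidase (1.96 and 1.21 CPM), and Ctsk, the collagen-degrading cathepsin K (8.62 and 5.56 CPM). P4ha1 was also the lowest of 37 in endothelium, at 34.7 and 67.5 CPM (-0.96), where 4 genes were higher (all genes: 12%) and 2 lower (all genes: 6.39%). Serpinh1, the collagen chaperone HSP47, was at 471 CPM with sunitinib and 560 CPM with vehicle in smooth muscle (-0.25), and Lox, which crosslinks fibrils, at 123 and 155 CPM (-0.33).

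For sunitinib plus Yoda1 against sunitinib, 8 of 47 pathway genes were higher (all genes: 35.0%) and 10 lower (all genes: 10.7%) in smooth muscle. In endothelium 10 of 43 were higher (all genes: 37.1%) and 18 lower (all genes: 20.3%). In smooth muscle the ends were Cd44 (69.5 and 22.4 CPM) and Cd93 (4.03 and 1.42 CPM), both also markers of other cells, and Sparc (1302 and 2610 CPM) and Lox (62.5 and 123 CPM). In endothelium Pcolce2, an enhancer of procollagen processing, was at 2.18 and 369 CPM (-7.41) and Lox at 16.98 and 225 CPM (-3.73). There Pxdn, the peroxidase that crosslinks type IV networks, was at 121 and 18.2 CPM (2.73), in the same direction as Col4a1 and Col4a2. The enzymes Tll1 (38.3 CPM) and Colgalt2 (36.6 CPM) had no UMI with sunitinib. Against smooth muscle, 30 of 47 of these genes were higher in fibroblasts (all genes: 20%) and 5 lower (all genes: 10.3%). Against endothelium, 32 of 48 were higher (all genes: 16.3%) and 6 lower (all genes: 18%). Among the higher genes of both was Pcolce, at 464 CPM in fibroblasts, 12.2 in endothelium and 20.1 in smooth muscle.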

How the data were processed

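Single cells of an arterial digest were sequenced with a 10x Chromium 3′ kit, per the labels' protocols, in 3 libraries, 1 each for sunitinib plus Yoda1, sunitinib and vehicle. The deposited files hold UMI counts per gene and cell, not normalized; the authors made them with Cell Ranger, version 7.1.0 for sunitinib plus Yoda1 and 6.0.0 for the others, per the file headers. The submitters' processing notes name mm10. The sources used here do not say whether intronic reads were counted. Cells were filtered and classed as stated in the report, doublets were not called, and counts were summed per class and library (Python 3.11.15, numpy 2.4.6, pandas 2.3.3, scipy 1.17.1). Intervals are exact Poisson for a level and exact binomial for a ratio or share, at 95%, and cover counting error only. A ratio was measured with at least 20 UMIs over both sums; a gene counted as different past 1.5-fold between libraries and 2-fold between classes, and the same rule over all genes gave the shares printed beside the counts. A count of 0 was set to 3 UMIs, which gives a bound. No test was possible with 1 library per group. For the alternatives, TMM factors came from edgeR 4.0.16. Genes named at each end of a comparison are the 3 highest and 3 lowest with at least 50 UMIs over both sums; others are named by their class pattern and were chosen after their values were seen. The members and lists were chosen with earlier results of these data known. The script was tested on simulated data.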

Additional observations from a re-analysis of the deposited data

Results flagged for a closer look

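Between sunitinib plus Yoda1 and sunitinib, 4 collagen genes had opposite directions in the 2 classes. The log2 ratio of Col4a3 was 2.19 in smooth muscle and -3.71 in endothelium, and that of Col4a4 was 2.21 and -3.44. For Col4a5 it was 0.59 and -1.78, and for Col23a1 2.27 and -1.45. Smooth muscle for sunitinib plus Yoda1 held 12 UMIs of Col4a3 and 21 of Col4a4. There Col4a5 was just past 1.5-fold and turned to -1.20 at the 5% contractile gate. Its endothelial level with sunitinib was covered to 67.3% by the carry-over bound. All 4 genes lie in the bin of longest introns, where the median over all genes was 0.95 in smooth muscle and 1.31 in endothelium. With 1 library per group, the difference between the classes was not tested. The endothelium of the libraries also differed in capillary markers, which were seen in 87.1% of cells for sunitinib plus Yoda1 and 3.13% for sunitinib; the part of this in the ratios was not tested.

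In the sunitinib plus Yoda1 library, cells in none of the 4 classes held higher levels of 2 collagens than the classes did. In the sunitinib plus Yoda1 library these cells had Col28a1, known from glia of peripheral nerves, at 22.1096 CPM (95 UMIs) and Col11a1, a fibrillar chain, at 7.68019 CPM (33 UMIs). Endothelium of that library had Col28a1 at 8.27 CPM, and its fibroblasts had Col28a1 at 2.91 CPM and Col11a1 at 1.46 CPM. Both levels were above those of every class described in the report and of the unclassed vehicle cells. With sunitinib and with vehicle, unclassed cells were above every class of at least 50 cells for several other collagens, though not for Col3a1. Among these were Col1a1, at 630 CPM with sunitinib and 623 CPM with vehicle, and Col1a2, at 1063 and 1204 CPM.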

How the results depend on the processing

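No paired analysis was possible because each group is 1 library, and for the same reason no replicate could be left out. Each count of collagen genes past the fold threshold was recomputed under each alternative; 144 of 192 counts stayed within 1.5 times the main one and 48 did not. Of 2135 single-gene ratios, 1647 moved by less than their counting interval, 474 moved further and 14 took the opposite sign, some of these only as bounds. A higher minimum of UMIs or thinning leaves fewer genes measured, so a lower count there does not show smaller folds. The cause was not tested unless stated.

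For sunitinib against vehicle in smooth muscle, the 1 higher gene became 2 with a contractile gate of 5%, 0 with at most 5% mitochondrial UMIs, 2 with marker pairs of other classes left out, 0 in cells without posterior Hox UMIs, 3 with means over cells, 3 with no minimum of UMIs and 0 with 100 UMIs. The 2 lower genes became 0 at the 5% gate, 0 at 5% mitochondrial UMIs, 1 with marker pairs left out, 1 after thinning, 1 in posterior Hox cells, 1 with means over cells, 4 with no minimum and 1 with 100 UMIs. Col6a6 turned to 0.25 at 5% mitochondrial UMIs.

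In endothelium, the 1 higher gene became 0 under a joint gate of 3 UMIs, at 5% mitochondrial UMIs, without capillary UMIs, with 100 UMIs and with smooth muscle RNA taken off, and 2 with means over cells. The 4 lower genes became 8 under the joint gate, 0 after thinning and 0 with 100 UMIs. Either of the last 2 settings left 11 of 19 genes measured and none of the 4. Col15a1 turned to -0.64 under the joint gate.

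For sunitinib plus Yoda1 against sunitinib in smooth muscle, the 5% gate left 5 cells of the first library and gave 7 higher genes in place of 13 and 8 lower in place of 1, with Col4a5 at -1.20. Col4a6 had no UMI there, and its ratio was at most -0.37 with the 3-UMI floor. Lower genes numbered 2 at 5% mitochondrial UMIs, 3 after thinning, 3 in posterior Hox cells, 2 in cells without, 5 with TMM factors, 5 with median-of-ratios factors and 2 with means over cells. Col27a1 turned to -1.36 in posterior Hox cells.

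In endothelium the 5 higher genes became 3 after thinning, 3 without capillary UMIs, 13 with no minimum and 10 with smooth muscle RNA taken off. The 10 lower became 6 without capillary UMIs, an alternative chosen after seeing the data in which 12 of 18 genes were measured and Col4a1 turned to -0.17 and Col5a2 to 0.83. Taking off smooth muscle RNA at the carry-over bound left no Col1a1 or Col6a2 with sunitinib. The values of 1.96 and 0.9988 then stand on the 3-UMI floor and do not show a turned direction.

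Between endothelium and smooth muscle for sunitinib plus Yoda1, the 3 higher genes became 0 at the 5% gate, 1 under the joint gate, 5 with no minimum and 1 with 100 UMIs, and the 14 lower became 6 at the 5% gate. There Col8a1 turned to -0.43, Col13a1 to -0.30 and Col15a1 to 0.17, on 11, 3 and 4 UMIs in the 5 smooth muscle cells, and Col15a1 to 0.74 at 5% mitochondrial UMIs. For sunitinib, the 4 higher genes became 7 with no minimum. For fibroblasts against smooth muscle, the Col4a6 ratio was at least 1.66 at the 5% gate, with the 3-UMI floor for a count of 0. Against endothelium, the 5 lower genes became 1 under the joint gate, 3 at 5% mitochondrial UMIs, 3 after thinning and 3 with 100 UMIs.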
